A study of Homo sapiens with 4 samples.

Results

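Collagens are the main structural proteins of the extracellular matrix, and the genes described here are the collagen chains together with the enzymes and the chaperone that modify, process and cross-link them. They were chosen by symbol: every numbered collagen chain gene, the lysyl oxidase family (LOX and LOXL genes), the lysyl hydroxylases PLOD1 to PLOD3, the prolyl 4-hydroxylase subunits P4HA1 to P4HA3, and BMP1, PCOLCE, PCOLCE2 and SERPINH1. The deposited values cover 55 such genes, 41 chains and 14 enzymes and chaperones, of 17687 genes in all. Each was represented by 1 probe set. COL3A1, COL7A1, COL17A1 and LOXL2 were not among these 55 genes.

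RNA came from KGN, an established line of human granulosa tumour cells, and was hybridised to Clariom S Human arrays. The siYT groups had received siRNAs against YAP and TAZ (YAP1 and WWTR1), 5 nM each, and the siNC groups 10 nM of control siRNA. At 48 h the medium was exchanged, and the cells were kept for 24 h more in medium with 0.5 mM 8Br-cAMP (siYT+8Br-cAMP and siNC+8Br-cAMP) or without it (siYT and siNC). 8Br-cAMP is an analogue of cyclic AMP that enters cells. Each of the 4 groups was 1 array of 1 cell line, so none of the differences below could be set against the spread between cultures. The 4 arrays limit the precision. Levels are the deposited log2 signals, which served for comparing groups within a gene and not for comparing genes with each other, and folds are computed from these units.

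A collagen molecule is a triple helix of chains. In the endoplasmic reticulum prolyl 4-hydroxylases stabilise the helix and lysyl hydroxylases prepare lysines for glycosylation and cross-linking, while the chaperone HSP47 holds the folded molecule. After secretion BMP1 cuts the C-terminal propeptides of fibrillar procollagens, and lysyl oxidases start the cross-links that give fibrils their strength. In the ovarian follicle granulosa cells lie on a basement membrane whose scaffold is type IV collagen, while fibrillar collagens are known mainly from the theca and stroma around it. YAP and TAZ are transcriptional coactivators of the Hippo pathway, and cyclic AMP carries the gonadotropin signal inside granulosa cells.

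The siRNA targets were lower in the siYT groups. YAP1 was at 6.80 in siYT, against 9.48 in siNC, and at 6.29 in siYT+8Br-cAMP, against 9.46 in siNC+8Br-cAMP. WWTR1 was at 5.45 in siYT, against 7.58 in siNC, and at 5.35 in siYT+8Br-cAMP, against 9.13 in siNC+8Br-cAMP. Of 12 measured granulosa markers, 8 reached the level filter of 6.22 on at least 1 array. This filter is the median of all gene values over the 4 arrays. AMHR2, FOXL2, INHA and NR5A2 stayed under it on every array. For these markers the log2 values summed to 89.5 in siYT, against 80.8 in siNC, and to 98.7 in siYT+8Br-cAMP, against 90.2 in siNC+8Br-cAMP. These sums hold opposite differences: CYP19A1, the aromatase that makes estrogen, was higher after YAP/TAZ siRNA by 9.23 without and 3.29 with 8Br-cAMP, and FST, the activin-binding follistatin, differed by -3.28 and -1.62. CYP19A1 rose and FST fell in the additive model described below (limma adjusted p = 0.0032 and 0.0041). Of 9 theca and fibroblast markers 5 reached the filter, with sums of 71.3 in siYT and 67.5 in siYT+8Br-cAMP, against 58.3 in siNC and 58.7 in siNC+8Br-cAMP. The collagen-binding proteoglycan LUM was at 10.23 in siYT, against 4.89 in siNC, and at 9.73 in siYT+8Br-cAMP, against 5.28 in siNC+8Br-cAMP. DCN, another such proteoglycan, was at 9.23 in siYT, against 5.84 in siNC, and at 8.43 in siYT+8Br-cAMP, against 4.56 in siNC+8Br-cAMP. Both rose (limma adjusted p = 8.02e-05 and 0.000119), while the surface marker THY1 was at 12.34 in siYT, against 12.95 in siNC, and at 12.38 in siYT+8Br-cAMP, against 12.95 in siNC+8Br-cAMP. The theca genes CYP17A1, INSL3 and LHCGR stayed under the filter on all 4 arrays, and the part of these markers in the collagen differences was not tested. Of 5 markers each, the endothelial KDR, the leukocyte marker CD68, which is a lysosomal protein of many cells, and 0 epithelial markers reached the filter. CD68 was at 12.69 in siYT, against 10.77 in siNC, and at 13.15 in siYT+8Br-cAMP, against 10.33 in siNC+8Br-cAMP, and rose (limma adjusted p = 0.0019); its part in the collagen differences was not tested either. The arrays had medians of 6.20 to 6.27 over their probe sets. In bulk RNA fewer cells that express a gene and less of its RNA per cell cannot be told apart.

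After YAP/TAZ siRNA the differences in the collagen genes ran mostly upward. Without 8Br-cAMP 13 of the 55 genes were at least 2-fold higher in siYT with their higher array past the filter, which is 23.6% of them, and 0 were lower. The background over all genes was 7.60% higher and 7.32% lower. With 8Br-cAMP 7 genes, or 12.7%, were higher and 2, or 3.64%, were lower, against 5.52% and 5.94% of all genes. In both media 6 genes, or 10.9%, were higher and 0 lower, against 3.44% and 3.89% of all genes. These 6 were the basement membrane chain COL4A5, the fibrillar chain COL5A2, the type VI chain COL6A1, the lysyl hydroxylases PLOD1 and PLOD2, and the procollagen protease BMP1.

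Regardless of size and level, 28 of the 55 genes (50.9%) were higher in siYT in both media, 7 (12.7%) were lower in both and 20 (36.4%) differed in sign. Over all genes these shares were 34.5%, 29.3% and 36.2%. The siRNA differences in the 2 media share no array. The median difference of the 55 genes was 0.30 without and 0.40 with 8Br-cAMP, beside 0.02 and 0.06 over all genes. Of all 17687 genes 9752 reached the filter on at least 1 array, and of the 55 members 26 did so. The other 29 had values between 1.81 and 6.11, where background signal weighs on the size of any difference.

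A second reading of the siRNA effect used an additive limma model over all 17687 genes, which averages the siRNA difference over both media. It called 8 of the 55 genes, which is 14.5%, all of them higher, at an adjusted p under 0.05. Over all genes it called 4.30% higher and 4.67% lower. The 8 were the 6 genes named above together with P4HA1 and the fibril-associated chain COL14A1, and the words rose and fell are kept for genes with such a call. The model has 1 residual degree of freedom, and its error holds the disagreement between the media and no spread between cultures. When it was fitted to log2 of the linear value plus 32, it called 0 of the 55 genes and 0% of all genes. An unadjusted p under 0.05 was found for 16 of the 55 genes and for 3964 of all 17687.

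**Figure D1:**
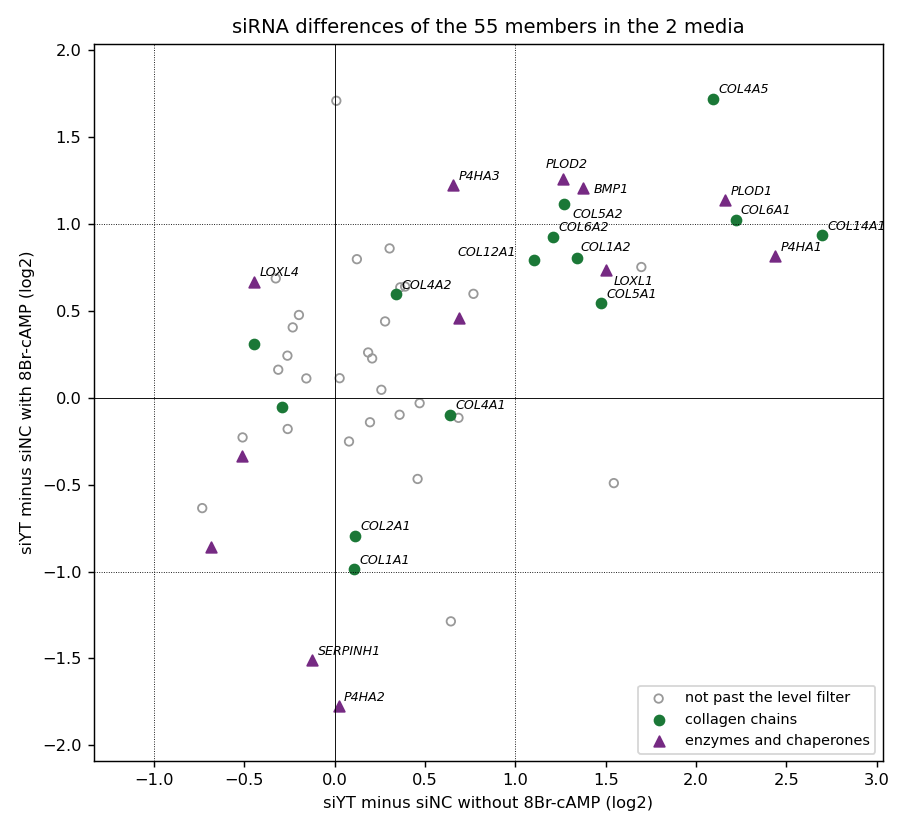
Each point is 1 of the 55 genes, placed by its log2 difference of siYT minus siNC without 8Br-cAMP (horizontal) and with it (vertical). Green circles are collagen chains and purple triangles enzymes and chaperones past the level filter, open circles are genes under it, dotted lines mark 2-fold, and names are given for genes past the filter that differed by at least 2-fold in any of the 4 pair differences. The 6 genes in the upper right field are 2-fold higher in both media, while SERPINH1 and P4HA2 lie near 0 on the horizontal axis and under -1 on the vertical one.

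Fibrillar collagens form the banded fibres of connective tissue. Of 10 measured fibrillar chains 5 reached the filter: COL1A1, COL1A2, COL2A1, COL5A1 and COL5A2. COL5A2 and COL5A1 encode chains of type V collagen, which helps to start fibrils and sets their width. COL5A2 was at 8.89 in siYT, against 7.62 in siNC, and at 9.20 in siYT+8Br-cAMP, against 8.08 in siNC+8Br-cAMP. It was higher after YAP/TAZ siRNA by 1.27 and 1.11 on the log2 scale, or 2.41-fold and 2.17-fold, and rose in the additive model by 1.19 on average (SE 0.307, limma adjusted p = 0.0379).

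COL5A1 was at 10.32 in siYT, against 8.84 in siNC, and at 9.59 in siYT+8Br-cAMP, against 9.05 in siNC+8Br-cAMP. Its siRNA difference was therefore 1.48 without and 0.54 with 8Br-cAMP, and it did not pass (limma adjusted p = 0.101). These type V chains were both lowest in siNC, and COL5A2 was highest in siYT+8Br-cAMP while COL5A1 was highest in siYT.

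The chains of type I collagen, the main collagen of fibres, differed from each other. COL1A2, which encodes its alpha-2 chain, was at 14.22 in siYT, against 12.88 in siNC, and at 13.69 in siYT+8Br-cAMP, against 12.89 in siNC+8Br-cAMP. Both siYT arrays were above both siNC arrays, by 1.34 in plain medium and by 0.80 with 8Br-cAMP (limma adjusted p = 0.0655). COL1A1, which encodes the alpha-1 chain, was at 13.38 in siYT, against 13.27 in siNC, and at 11.91 in siYT+8Br-cAMP, against 12.90 in siNC+8Br-cAMP. Its siRNA difference was 0.11 in plain medium and -0.99 in medium with 8Br-cAMP (limma adjusted p = 0.535), and the siYT+8Br-cAMP array was the lowest of the 4.

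COL2A1, the chain of the cartilage collagen type II, had the same order of arrays as COL1A1. It was at 7.79 in siYT, against 7.68 in siNC, and at 6.07 in siYT+8Br-cAMP, against 6.86 in siNC+8Br-cAMP. Its lowest value lay under the filter. Both values with 8Br-cAMP lay under 6.95, the 95th percentile of the 612 negative control probe sets. The remaining fibrillar chains COL5A3, COL11A1, COL11A2, COL24A1 and COL27A1 stayed under the filter on all 4 arrays. Over the 10 fibrillar chains the median siRNA difference was 0.58 without and 0.33 with 8Br-cAMP.

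**Figure D2:**
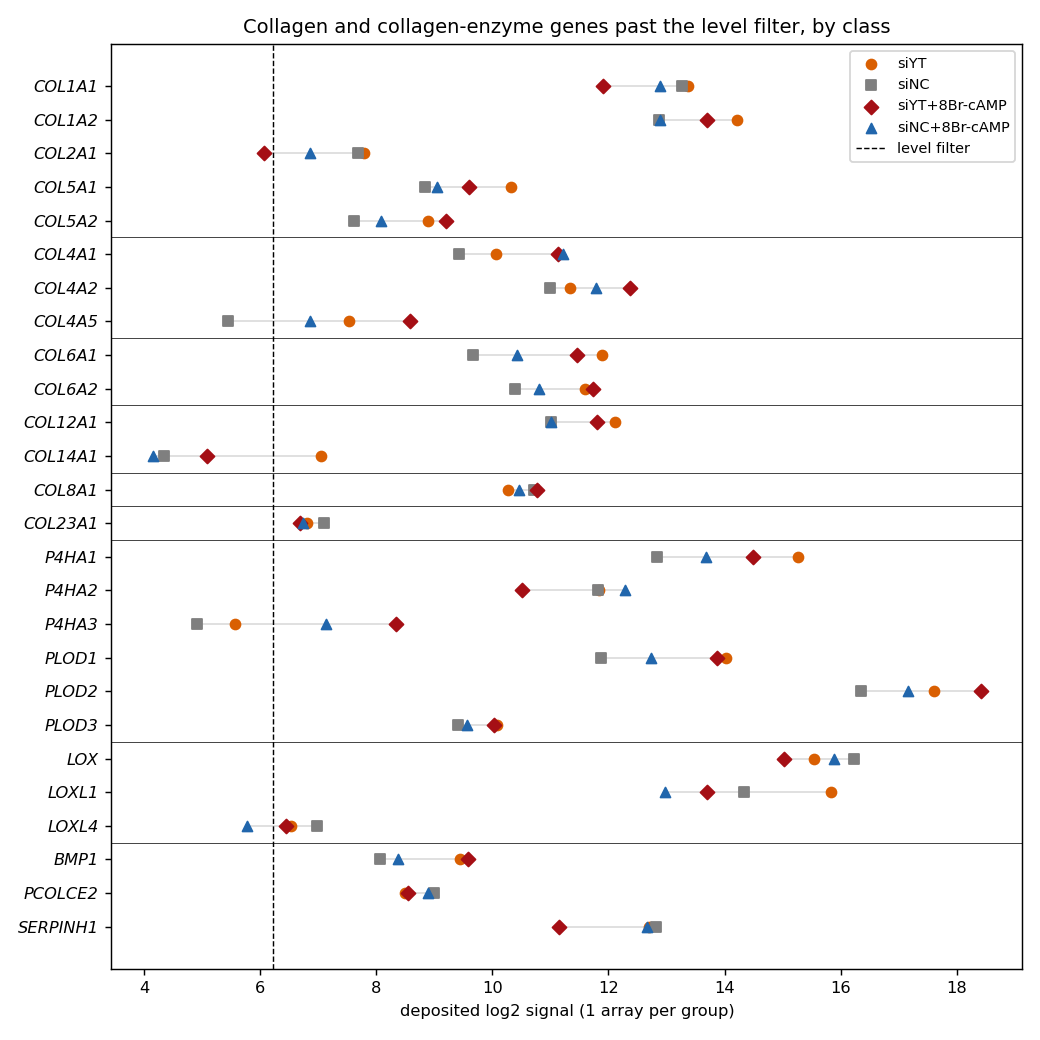
Deposited log2 signal (horizontal) of the 26 genes past the level filter on at least 1 array, with 1 symbol per group, each a single array, and horizontal rules between collagen classes and enzyme groups. The dashed line is the filter at 6.22. COL2A1, COL4A5, COL14A1, P4HA3 and LOXL4 cross it, and for COL4A5, COL5A2, COL6A1, PLOD1, PLOD2 and BMP1 both siYT symbols lie to the right of both siNC symbols.

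Type IV collagen forms the sheet-like network of basement membranes. Its genes lie in head-to-head pairs, and in the RefSeq gene table (GRCh38.p14) COL4A1 is next to COL4A2, COL4A4 to COL4A3 and COL4A6 to COL4A5. COL4A1, COL4A2 and COL4A5 reached the filter and the other 3 did not. Because COL4A1 and COL4A2 are read in opposite directions from a shared stretch and were both higher with 8Br-cAMP, the 126 bases between their RefSeq start sites are shown (chr13:110307158-110307283, GRCh38.p14, plus strand, the direction of COL4A2). The 250 bases before the start of COL4A5, the chain with the largest siRNA difference of this class, are shown with it (chrX:108439588-108439837, plus strand). For each gene the first start listed was used. Capitals mark the letters of 4 searched motifs on either strand.
COL4A1-COL4A2: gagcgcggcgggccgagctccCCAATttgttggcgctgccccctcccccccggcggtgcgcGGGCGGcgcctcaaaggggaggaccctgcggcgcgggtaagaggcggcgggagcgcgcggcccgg
COL4A5: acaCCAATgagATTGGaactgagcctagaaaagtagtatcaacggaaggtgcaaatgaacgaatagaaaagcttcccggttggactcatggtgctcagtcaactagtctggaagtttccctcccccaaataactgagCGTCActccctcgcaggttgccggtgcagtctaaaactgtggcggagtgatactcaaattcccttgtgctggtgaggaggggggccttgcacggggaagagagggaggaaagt

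The motifs were GGAATG, the core read by TEAD partners of YAP and TAZ; TGACG, the core of the cyclic AMP response element; the CCAAT box, CCAAT; and the GC box, GGGCGG. The stretch between COL4A1 and COL4A2 held 1 CCAAT box and 1 GC box, and the COL4A5 window held 2 CCAAT boxes, 1 on each strand, and 1 TGACG on the other strand. Neither held GGAATG. Among 34943 RefSeq windows of 250 bases before a start, 11.9% held GGAATG, 21.2% TGACG, 32.04% CCAAT and 42.55% GGGCGG. In windows of 126 bases these shares were 5.89%, 13.75%, 21.1% and 34.5%. Of the 55 genes, 42 had a window in the table, and 4 of these held GGAATG in at least 1 window, 10 TGACG, 14 CCAAT and 29 GGGCGG. These are counts of genes, which may have several windows, and cannot be set directly against the shares of single windows. A match is a description of letters and not of a bound site.

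COL4A5 was higher after the siRNA in both media and higher with 8Br-cAMP after both siRNAs. It was at 7.54 in siYT, against 5.44 in siNC, and at 8.59 in siYT+8Br-cAMP, against 6.87 in siNC+8Br-cAMP. The siRNA differences were 2.10 and 1.72, or 4.28-fold and 3.29-fold, and COL4A5 rose in the additive model by 1.91 (SE 0.312, limma adjusted p = 0.0041). The 8Br-cAMP differences were 1.05 after siYT and 1.43 after siNC (limma adjusted p = 0.0813). On log2 of the linear value plus 32 they were 0.94 and 0.98 and thus under 2-fold. Its siNC value lay under the filter, and its siNC+8Br-cAMP value lay under the negative control limit of 6.95. The folds that start from either value therefore depend on the background. Its neighbour COL4A6 stayed under the filter at 5.79 in siYT, against 4.09 in siNC, and at 5.85 in siYT+8Br-cAMP, against 5.10 in siNC+8Br-cAMP.

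COL4A1 and COL4A2, the chains of the most widespread type IV molecule, were separated by 8Br-cAMP more than by the siRNA. COL4A1 was at 11.13 in siYT+8Br-cAMP, against 10.06 in siYT, and at 11.22 in siNC+8Br-cAMP, against 9.42 in siNC. COL4A2 was at 12.38 in siYT+8Br-cAMP, against 11.34 in siYT, and at 11.78 in siNC+8Br-cAMP, against 11.00 in siNC. Both arrays with 8Br-cAMP were above both arrays without it for each gene. The 8Br-cAMP differences were 1.06 after siYT and 1.80 after siNC for COL4A1 (limma adjusted p = 0.0576), and 1.04 and 0.79 for COL4A2 (limma adjusted p = 0.187). After cyclic loess the COL4A2 difference after siYT was 0.98 and thus under 2-fold. The siRNA differences without and with 8Br-cAMP were 0.64 and -0.10 for COL4A1 and 0.34 and 0.59 for COL4A2.

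Type VI collagen makes beaded filaments close to cells, and COL6A1 and COL6A2, its alpha-1 and alpha-2 chains, are neighbours on chromosome 21 in the RefSeq table. COL6A1 was at 11.89 in siYT, against 9.67 in siNC, and at 11.46 in siYT+8Br-cAMP, against 10.43 in siNC+8Br-cAMP. This is 4.65-fold and 2.03-fold higher after YAP/TAZ siRNA, and COL6A1 rose by 1.62 on average (SE 0.359, limma adjusted p = 0.0194). COL6A2 was at 11.59 in siYT, against 10.38 in siNC, and at 11.73 in siYT+8Br-cAMP, against 10.81 in siNC+8Br-cAMP. Its differences of 1.21 and 0.93 did not pass (limma adjusted p = 0.0604), although both siYT arrays were above both siNC arrays. COL6A3, the alpha-3 chain, lay under the filter on all 4 arrays, as did COL6A5, COL6A6 and COL28A1.

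FACIT collagens attach to the surface of fibrils. Of 10 measured, COL12A1 and COL14A1 reached the filter. COL12A1 was at 12.11 in siYT, against 11.01 in siNC, and at 11.80 in siYT+8Br-cAMP, against 11.01 in siNC+8Br-cAMP, a difference of 1.10 and 0.79 (limma adjusted p = 0.0931). COL14A1 was at 7.05 in siYT, against 4.35 in siNC, and at 5.09 in siYT+8Br-cAMP, against 4.15 in siNC+8Br-cAMP. It rose by 1.82 on average (SE 0.412, limma adjusted p = 0.0216), and 3 of its 4 values lay under the filter, so its 6.50-fold difference without 8Br-cAMP depends on the background. COL14A1 was the highest in siYT alone and was 1.97 lower in siYT+8Br-cAMP than in siYT.

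COL8A1, a short-chain network collagen of endothelia and other tissues, and COL23A1, a transmembrane collagen, reached the filter and differed by less than 2-fold in every pair. COL8A1 was at 10.27 in siYT, against 10.72 in siNC, and at 10.78 in siYT+8Br-cAMP, against 10.46 in siNC+8Br-cAMP. COL23A1 lay between 6.68 and 7.10, with 3 of its values under the negative control limit of 6.95. The chains COL8A2, COL10A1, COL9A1, COL9A2, COL9A3, COL16A1, COL19A1, COL20A1, COL21A1, COL22A1, COL13A1, COL25A1, COL15A1, COL18A1 and COL26A1 stayed under the filter on all 4 arrays.

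All 6 hydroxylase genes reached the filter, and they differed in direction. The lysyl hydroxylases PLOD1 and PLOD2 were at least 2-fold higher after the siRNA in both media, and PLOD3 was not. PLOD2, the enzyme that hydroxylates lysines in the telopeptides, was at 17.61 in siYT, against 16.35 in siNC, and at 18.42 in siYT+8Br-cAMP, against 17.16 in siNC+8Br-cAMP. Its siRNA differences of 1.27 and 1.26 were 2.41-fold and 2.39-fold, and it rose in the additive model (SE 0.306, limma adjusted p = 0.0295). All PLOD2 values lay above 16, beyond a 16-bit scanner, so an unnamed rescaling is possible and these folds are in deposited units. The 8Br-cAMP differences of PLOD2 were 0.81 after siYT and 0.82 after siNC, and the first minus the second was -0.01.

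PLOD1, which hydroxylates lysines in the helix, was at 14.03 in siYT, against 11.87 in siNC, and at 13.87 in siYT+8Br-cAMP, against 12.74 in siNC+8Br-cAMP. It was 4.47-fold and 2.20-fold higher after the siRNA and rose by 1.65 on average (SE 0.346, limma adjusted p = 0.0151). PLOD3, which also adds sugars to hydroxylysine, was at 10.09 in siYT, against 9.40 in siNC, and at 10.03 in siYT+8Br-cAMP, against 9.57 in siNC+8Br-cAMP (limma adjusted p = 0.322). For all 3 genes both siYT arrays lay above both siNC arrays.

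The catalytic subunits of prolyl 4-hydroxylase each had a pattern of their own. P4HA1, the most widespread subunit, was at 15.27 in siYT, against 12.84 in siNC, and at 14.50 in siYT+8Br-cAMP, against 13.68 in siNC+8Br-cAMP. It rose by 1.63 on average (SE 0.398, limma adjusted p = 0.0306), with differences as far apart as 2.44 without and 0.81 with 8Br-cAMP. P4HA2 was at 11.85 in siYT, against 11.82 in siNC, and at 10.51 in siYT+8Br-cAMP, against 12.28 in siNC+8Br-cAMP. Its siRNA difference was 0.02 in plain medium and -1.77 with 8Br-cAMP (limma adjusted p = 0.252), and the array with both treatments was the lowest.

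P4HA3, a subunit known for lower expression in most tissues, was at 8.35 in siYT+8Br-cAMP, against 5.57 in siYT, and at 7.13 in siNC+8Br-cAMP, against 4.91 in siNC. It was 6.86-fold higher with 8Br-cAMP after siYT and 4.63-fold after siNC, and rose with 8Br-cAMP by 2.50 on average (SE 0.319, limma adjusted p = 0.0034). Both values without 8Br-cAMP lay under the filter, so these folds depend on the background. Its siRNA differences of 0.66 in plain medium and 1.22 with 8Br-cAMP did not pass (limma adjusted p = 0.104).

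The 250 bases before the starts of 3 hydroxylase genes are shown because the siRNA difference of PLOD2 was alike in both media while those of P4HA1 and P4HA2 were not. PLOD2 lies on the minus strand at chr3:146161185-146161434, P4HA1 on the minus strand at chr10:73096867-73097116 and P4HA2 on the minus strand at chr5:132227092-132227341 (RefSeq, GRCh38.p14). Each is written in the direction of its gene, and capitals mark the motifs given above. Only the first window listed for each gene is shown, and any other start of the gene is not described here.
PLOD2: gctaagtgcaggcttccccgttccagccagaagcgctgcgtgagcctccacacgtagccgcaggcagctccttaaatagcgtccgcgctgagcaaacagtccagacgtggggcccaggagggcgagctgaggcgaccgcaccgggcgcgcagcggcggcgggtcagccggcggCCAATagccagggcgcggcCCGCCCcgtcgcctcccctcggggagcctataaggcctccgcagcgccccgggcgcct
P4HA1: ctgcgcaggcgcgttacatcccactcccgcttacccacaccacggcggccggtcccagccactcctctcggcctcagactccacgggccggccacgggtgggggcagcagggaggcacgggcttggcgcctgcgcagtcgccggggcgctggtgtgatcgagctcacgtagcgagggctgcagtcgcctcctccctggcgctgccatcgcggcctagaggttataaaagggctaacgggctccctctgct
P4HA2: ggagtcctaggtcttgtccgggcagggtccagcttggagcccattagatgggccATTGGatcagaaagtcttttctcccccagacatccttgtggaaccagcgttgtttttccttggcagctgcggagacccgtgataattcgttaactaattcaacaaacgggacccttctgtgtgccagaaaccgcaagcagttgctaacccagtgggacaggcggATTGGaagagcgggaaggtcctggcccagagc

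The PLOD2 window held 1 CCAAT box and 1 GC box, the P4HA2 window held 2 CCAAT boxes on the other strand, and the P4HA1 window held 0 of the 4 motifs. None of the 3 held GGAATG or TGACG in these 250 bases.

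**Figure D3:**
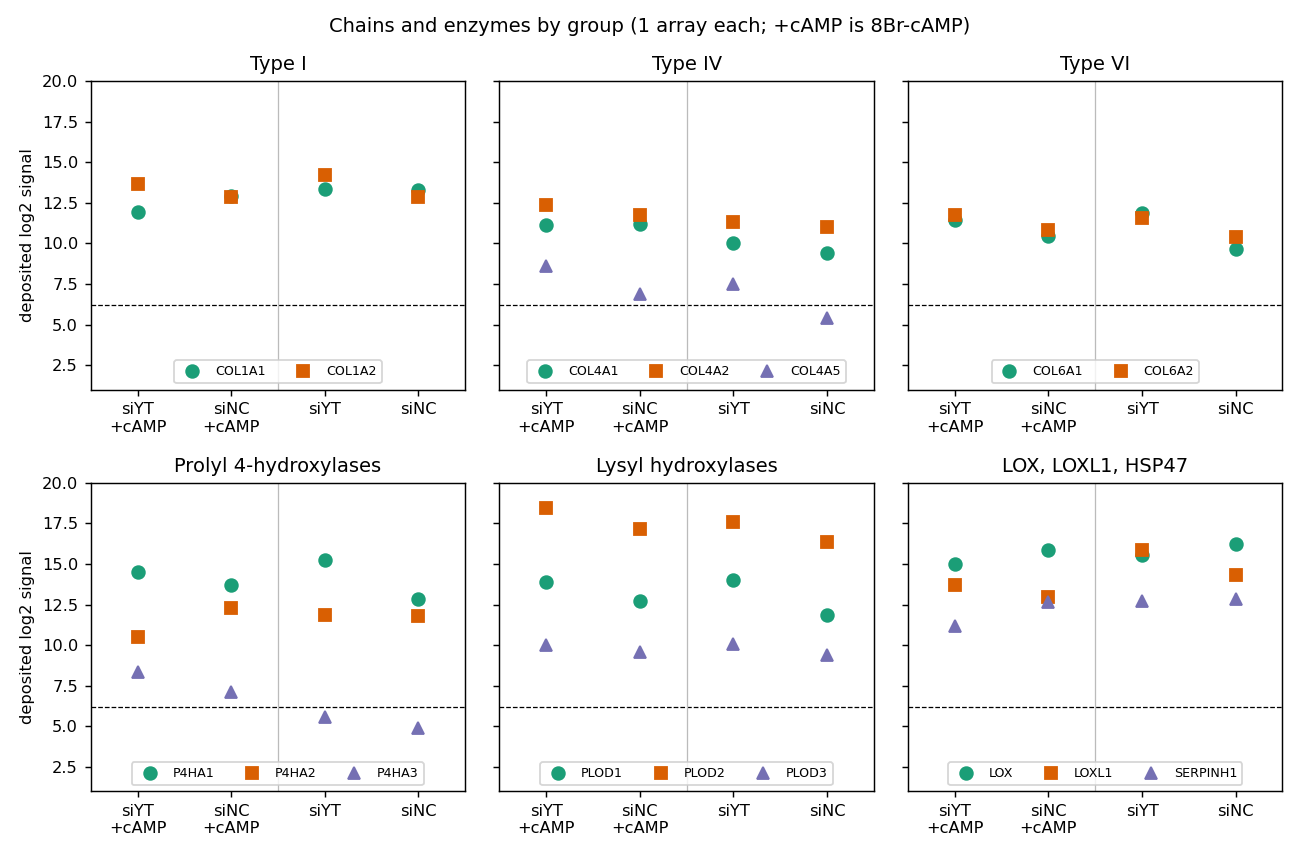
Deposited log2 signal (vertical) of collagen chains and enzymes by family, with 1 array per group, 8Br-cAMP groups left of the grey line and the level filter at 6.22 as a dashed line. COL1A1, P4HA2 and SERPINH1 are lowest in siYT+8Br-cAMP, COL1A2 and P4HA1 are highest in siYT, and P4HA3 passes the filter only with 8Br-cAMP.

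Lysyl oxidases differed by member. LOXL1, which also acts on elastic fibres, was at 15.84 in siYT, against 14.34 in siNC, and at 13.71 in siYT+8Br-cAMP, against 12.97 in siNC+8Br-cAMP. It was higher after the siRNA by 1.501 and 0.73 (limma adjusted p = 0.064). With 8Br-cAMP it was lower by 2.14 after siYT and by 1.37 after siNC, or 4.39-fold and 2.58-fold, and it fell by 1.75 on average (SE 0.329, limma adjusted p = 0.0262). LOXL1 was thus highest in siYT and lowest in siNC+8Br-cAMP.

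LOX, the founding member, was at 15.54 in siYT, against 16.23 in siNC, and at 15.02 in siYT+8Br-cAMP, against 15.88 in siNC+8Br-cAMP. Both siYT arrays were below both siNC arrays, by 0.68 and 0.86 on the log2 scale, which is under 2-fold (limma adjusted p = 0.167). LOXL4 was at 6.54 in siYT, against 6.99 in siNC, and at 6.44 in siYT+8Br-cAMP, against 5.77 in siNC+8Br-cAMP. These values are near the filter, and 3 of them lay under 6.95, the 95th percentile of the 612 negative control probe sets. LOXL3 stayed under the filter on all 4 arrays.

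BMP1 was higher after the siRNA in both media. It was at 9.44 in siYT, against 8.07 in siNC, and at 9.58 in siYT+8Br-cAMP, against 8.38 in siNC+8Br-cAMP, which is 2.59-fold and 2.31-fold. BMP1 rose by 1.29 on average (SE 0.307, limma adjusted p = 0.027). PCOLCE2, an enhancer of this cleavage, was at 8.49 in siYT, against 9.002 in siNC, and at 8.55 in siYT+8Br-cAMP, against 8.89 in siNC+8Br-cAMP. Its relative PCOLCE lay under the filter on all 4 arrays.

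SERPINH1, which encodes HSP47, was at 12.70 in siYT, against 12.82 in siNC, and at 11.15 in siYT+8Br-cAMP, against 12.66 in siNC+8Br-cAMP. The siYT+8Br-cAMP array stood below the other 3. The siRNA difference was -0.12 in plain medium and -1.51 with 8Br-cAMP (limma adjusted p = 0.235).

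The second question was what 8Br-cAMP changed after each siRNA. As before, genes were counted as 2-fold different only where the filter was reached. After siYT 4 of the 55 genes, or 7.27%, were at least 2-fold higher with 8Br-cAMP and 6, or 10.9%, were lower, against 4.06% and 4.15% of all genes. After siNC 3, or 5.45%, were higher and 2, or 3.64%, were lower, close to the 4.32% and 3.74% of all genes. After both siRNAs COL4A1, COL4A5 and P4HA3 were higher, which is 5.45% against 1.74% of all genes, and LOXL1 was lower, which is 1.82% against 1.31%. On log2 of the linear value plus 32 COL4A5 is not among them, and 2 genes were higher. Over type IV chains the median 8Br-cAMP difference was 0.55 after siYT and 0.90 after siNC, and over fibrillar chains -0.36 and -0.02, beside -0.02 and -0.03 over all genes. These class medians include chains under the filter on all 4 arrays, 3 of 6 for type IV and 5 of 10 for the fibrillar class. The additive limma model called 1 of the 55 genes higher with 8Br-cAMP, P4HA3, and 1 lower, LOXL1, which is 1.82% each against 1.15% and 0.662% of all genes.

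**Figure D4:**
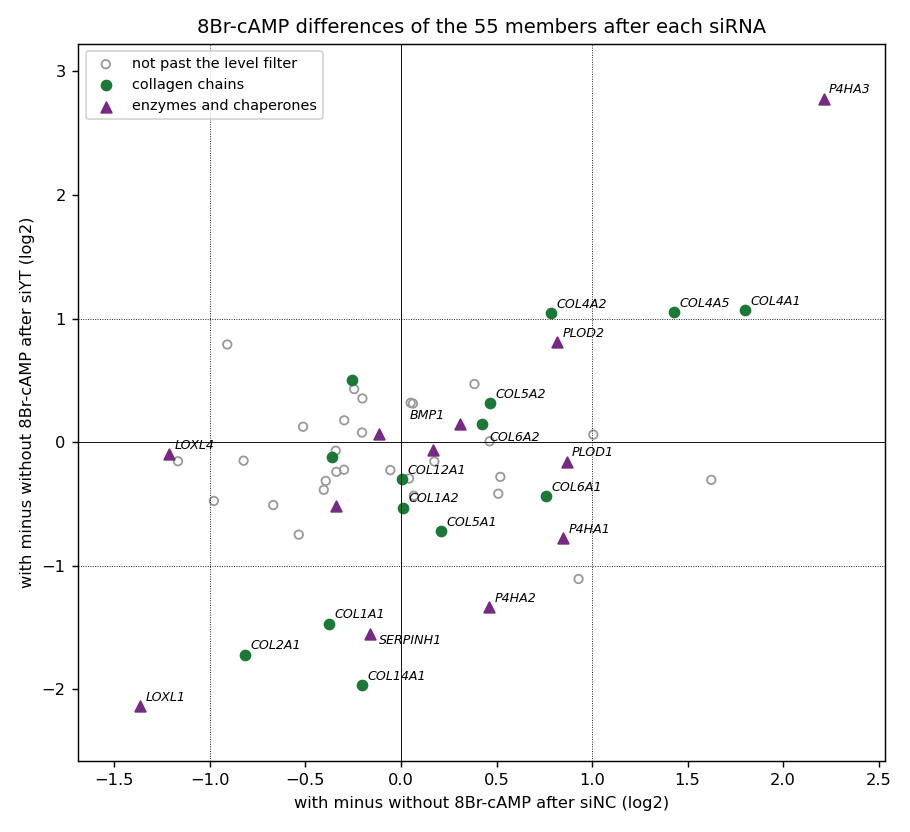
Each point is 1 of the 55 genes, placed by its log2 difference with minus without 8Br-cAMP after siNC (horizontal) and after siYT (vertical), with symbols and dotted 2-fold lines as in the plot of siRNA differences. P4HA3, COL4A1 and COL4A5 lie in the upper right field and LOXL1 in the lower left one, while COL1A1, COL2A1, COL14A1, P4HA2 and SERPINH1 lie under -1 only after siYT.

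Over all genes 734 were 2-fold lower with 8Br-cAMP after siYT, and 231 were lower after both siRNAs, so most did not overlap. Of the 6 members lower with 8Br-cAMP after siYT, 5 were not 2-fold lower after siNC: COL1A1, COL2A1, COL14A1, P4HA2 and SERPINH1. Their differences after siYT were -1.47, -1.72, -1.97, -1.34 and -1.55, and after siNC they were -0.37, -0.81, -0.20, 0.46 and -0.16 in the same order. COL14A1 lay under the filter in siNC (4.35) and siNC+8Br-cAMP (4.15), so it could not be called lower after siNC. Its double difference given below depends on the background as well. When the 8Br-cAMP difference after siNC was subtracted from the one after siYT, the result was at least 1 in size for 8 genes. This double difference was negative for 7 of them, or 12.7%, against 4.82% of all genes, and positive for 1, or 1.82%, against 3.57%. The 7 were P4HA2 (-1.80), COL14A1 (-1.76), P4HA1 (-1.63), SERPINH1 (-1.39), COL6A1 (-1.20), COL1A1 (-1.09) and PLOD1 (-1.03), and the 1 was LOXL4 (1.12). Of these, COL1A1 (-0.999) and PLOD1 (-0.93) were under 1 in size after centring the arrays, PLOD1 (-0.997) after cyclic loess, and LOXL4 (0.80) on log2 of the linear value plus 32. For P4HA1, COL6A1 and PLOD1 the siYT arrays stayed above the siNC arrays in both media, by less with 8Br-cAMP. With 1 array per group it has no replicate check, and no test was run on it.

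Genes that work beside the members were counted from 3 lists, with 2-fold differences again counted only where the filter was reached. Over all genes, as given above, 7.60% were 2-fold higher and 7.32% lower in siYT without 8Br-cAMP, 5.52% higher and 5.94% lower with it, and limma called 4.30% higher and 4.67% lower. Of 23 other enzymes and chaperones of collagen synthesis, 7 were 2-fold higher in siYT without 8Br-cAMP and 3 with it, and 0 were lower in either medium. In the additive limma model 2 rose and 0 fell. FKBP7 and FKBP10, which are peptidyl-prolyl isomerases of the endoplasmic reticulum, were higher in both media. FKBP10, which aids the folding of type I procollagen, was at 11.89 in siYT, against 10.42 in siNC, and at 12.49 in siYT+8Br-cAMP, against 11.12 in siNC+8Br-cAMP. FKBP7 differed by 2.61 and 2.66, and both rose (limma adjusted p = 0.0171 for FKBP10 and 0.000578 for FKBP7). P4HB, the partner subunit of all prolyl 4-hydroxylase tetramers, differed by 1.502 and 0.72 and did not pass (limma adjusted p = 0.0651).

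Of 9 collagen receptors 5 were 2-fold higher in siYT without 8Br-cAMP and 2 with it, and 0 were lower, while 3 rose and 0 fell in limma. The tyrosine kinase receptor DDR1 was higher by 2.76 and 1.68, and MRC2, which takes up collagen for breakdown, by 2.17 and 1.84; both rose (limma adjusted p = 0.0034 and 0.0032). Of 11 genes of collagen breakdown or its inhibition 6 were higher without 8Br-cAMP and 3 with it, and 3 rose and 1 fell in limma. The 1 that fell, and the 1 that was 2-fold lower with 8Br-cAMP, was the protease inhibitor TIMP3. TIMP1, another such inhibitor, was among the 6 that were higher and differed by 1.37 and 0.72. The collagenases MMP1, MMP8 and MMP13 stayed under the filter on all 4 arrays, as did MMP9. The gelatinase MMP2 differed by 2.62 and 1.33, the membrane collagenase MMP14 by 2.08 and 1.76, and PEPD, which frees proline from dipeptides, by 1.49 and 1.11. These 3 genes rose (limma adjusted p = 0.0082, 0.004 and 0.0281). The medians of the siRNA differences without and with 8Br-cAMP were 0.61 and 0.22 for the synthesis list, 1.01 and 0.77 for the receptors and 1.37 and 0.08 for breakdown. These medians include genes that did not reach the filter, 6 of 23, 2 of 9 and 4 of 11 in the same order. The breakdown medians are the values of TIMP1 without and of MMP8 with 8Br-cAMP.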

How the data were processed

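RNA of 4 KGN cultures, 1 per group, was measured on Clariom S Human arrays. The deposited log2 values were made by the authors with RMA in Affymetrix Expression Console, per the labels and the submitters' processing notes; versions and genome build are not given in the sources used here. Values ran from 1.39 to 19.36. Those above 16 exceed a 16-bit scanner, so an unnamed rescaling is possible and folds are in deposited units. Of 24351 probe sets 17709 name 1 gene in the platform annotation; averaging gave 17687 genes.

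From these values pair differences were computed (Python 3.11.15). A gene was called at a difference of at least 1 where the higher array reached 6.22. limma 3.58.1 in R 4.3.3 fitted the additive model (1 residual and 9.24 prior degrees of freedom, Benjamini-Hochberg at 0.05). The fit was tested on simulated data, where the share of false calls was above the nominal level. Its p-values are not tests between replicates. Alternatives were other level filters, a 1.5-fold threshold, centring, cyclic loess, log2 of the linear value plus 32, and for limma a filter or a variance trend. All members 2-fold different in any pair and past the filter are given on every array; members under it are named only, apart from COL4A6, given as the neighbour of COL4A5; pathway genes are those called in both media. COL4A6, P4HB, TIMP1, TIMP3 and the markers with values were chosen after their values were seen. Members and lists were chosen with earlier results of these data known.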

Additional observations from a re-analysis of the deposited data

Results flagged for a closer look

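Some members past the level filter had differences of opposite sign in 2 cases, with at least 1 log2 unit between the cases as deposited. With 1 array per group none of these contrasts was tested. For the siRNA, subtracting the difference in plain medium from the one with 8Br-cAMP gave -1.80 for P4HA2, -1.09 for COL1A1 and 1.12 for LOXL4. In plain medium P4HA2 and COL1A1 differed between siYT and siNC by 0.02 and 0.11, and they were lower in siYT+8Br-cAMP than in siNC+8Br-cAMP (-1.77 and -0.99), while LOXL4 differed by -0.45 without and 0.67 with 8Br-cAMP. The plain-medium value of P4HA2 is near 0 and became -0.02 after centring and -0.03 after cyclic loess, so its sign there is not settled. For 8Br-cAMP, subtracting the difference after siNC from the one after siYT gave -1.80 for P4HA2, -1.63 for P4HA1, -1.20 for COL6A1 and -1.03 for PLOD1. These 4 genes were lower with 8Br-cAMP after siYT (-1.34, -0.78, -0.44 and -0.16) and higher with it after siNC (0.46, 0.85, 0.76 and 0.87). The gap fell under 1 in size for COL1A1 (-0.999) and PLOD1 (-0.93) after centring, for PLOD1 (-0.997) after cyclic loess and for LOXL4 (0.80) on log2 of the linear value plus 32.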

How the results depend on the processing

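No paired analysis was possible because each group was 1 array, and no replicate could be left out. At a 1.5-fold threshold the count of members called was 19 instead of 9 for the siRNA with 8Br-cAMP, while the share of all genes became 23.3% instead of 11.5%. It was 14 instead of 6 in both media (all genes 15.2% instead of 7.33%), and 11 instead of 5 for 8Br-cAMP after siNC (19.9% instead of 8.06%). It was 7 instead of 4 after both siRNAs (9.01% instead of 3.05%) and 13 instead of 8 for the difference of differences (21.1% instead of 8.39%). Without the level filter 8 members instead of 5 were called for 8Br-cAMP after siNC (all genes 11.8%), and 3 with log2 of the linear value plus 32 (6.12%). The additive limma model called 13 members instead of 8 for the siRNA and 5 instead of 2 for 8Br-cAMP when only genes past the filter were tested, where it called 22.1% instead of 8.97% and 7.23% instead of 1.81% of all genes tested. After cyclic loess it called 5 for 8Br-cAMP, with 4.21% of all genes. On log2 of the linear value plus 32 it called 0 for either, with a lowest adjusted p over all genes of 0.0589 and 0.169. There an unadjusted limma p under 0.05 was found for 16 of the 55 members for the siRNA, beside 3964 of all 17687 genes. For 8Br-cAMP it was found for 8 of the 55 members, beside 2769 of all 17687 genes. The other counts stayed within 1.5 times under the alternatives run. Of 84 pair differences of the 21 members given in full, 84 kept their side of the 2-fold line after centring, 82 after cyclic loess and 81 on log2 of the linear value plus 32, and 0 called ones changed sign. Centring moved the median siRNA difference with 8Br-cAMP over all genes to 0.11, against 0.06 as deposited.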
